A study of Homo sapiens with 8 samples.

Results

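The nuclear genes of the mitochondrial respiratory chain were examined in ZR-75-1 cells, an established estrogen receptor-positive line of luminal breast cancer, after stable knockdown of EI24. The genes were chosen by their symbols in the array annotation (NDUFA, NDUFB, NDUFC, NDUFS, NDUFV, SDH, UQCR, COX4I, COX5 to COX8 and ATP5), without pseudogenes, and with 1 transcript cluster per gene. This gave 87 of 18417 measured genes. Of these, 78 encode subunits: 34 of complex I, 3 of complex II, 7 of complex III, 17 of complex IV and 17 of complex V. The same prefixes also took in 7 NDUFAF assembly factors, the ATP synthase inhibitor ATP5IF1 and the non-coding transcript NDUFV1-DT. Some subunits, and those that mitochondrial DNA encodes, are not analysed here.

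The respiratory chain sits in the inner mitochondrial membrane. Complexes I and II take electrons from NADH and succinate and pass them to ubiquinone, complex III hands them on to cytochrome c, and complex IV reduces oxygen. Complexes I, III and IV pump protons across the membrane, and complex V, the ATP synthase, uses their return to make ATP. Most subunits are encoded in the nucleus, translated in the cytosol and imported.

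Total RNA of 4 lines was hybridized to Affymetrix arrays, 2 per line and 8 in all. The lines were shEI24 clone 1 and shEI24 clone 2, which carry an shRNA against EI24, shGFP cells, which carry a control shRNA against GFP, and parental ZR-75-1 cells without an shRNA. The methods give a serum-containing medium for ZR-75-1 cells and name no chemical treatment of the cells put on arrays. Whether the shRNA lines were kept under drug selection is not stated there. Each shEI24 line is 1 clone, so clone and knockdown cannot be told apart within a line, and whether both arrays of a line stem from different cultures is not stated. P-values therefore measure the spread between arrays of a line, which may be technical. All values are log2 intensities after quantile normalization within RMA, in which a change in the total mRNA of a cell is not seen, and levels are compared between lines but not between genes. In such bulk samples, fewer cells of a type and less RNA per cell cannot be told apart.

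The log2 intensity of EI24 was 8.64 and 8.43 in clone 1, 9.25 and 9.19 in clone 2, 11.97 and 11.91 in shGFP cells and 12.08 and 12.09 in parental cells. Every array thus fitted its label as shEI24 or control. The level of EI24 cannot check the labels of shGFP and parental arrays against each other. The luminal markers, which include ESR1 and CDH1, had a mean level of 8.73 to 9.14 in the shEI24 arrays and 12.27 to 12.39 in the control arrays, and all 8 of them fell. Among them KRT19 lay at 9.85 and 9.96 in clone 1 but at 12.16 and 12.12 in clone 2. The mesenchymal markers (VIM, FN1, CDH2 and ZEB1) had a mean level of 10.52 to 10.59 in the shEI24 arrays and 6.47 to 6.69 in the control arrays. Their log2 differences from shGFP cells were 6.20 for VIM, 5.05 for FN1 and 4.51 for ZEB1, but only 0.33 for CDH2. Fibroblast markers averaged 5.92 to 6.08 in the shEI24 arrays and 5.80 to 5.90 in the control arrays, endothelial markers 6.16 to 6.42 in the shEI24 arrays and 5.87 to 6.08 in the control arrays, and blood cell markers 7.49 to 7.56 in the shEI24 arrays and 6.02 to 6.23 in the control arrays. Among the blood cell markers CD68 alone differed widely (log2 difference 3.95), while PTPRC, the pan-leukocyte marker, lay at 4.37 to 4.54 in shEI24 arrays and 4.20 to 4.33 in control arrays. The part of these marker shifts in the results below was not tested.

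The first question was how the respiratory chain genes differed in the shEI24 clones from shGFP cells. Most of them fell. Of the 87 genes, 51 were lower in the clones and 5 higher (limma, adjusted p under 0.05), where 29.0% of all genes tested were lower and 26.8% higher, and 31 did not pass. The lower genes made up 58.6% of the group, and the median log2 difference was -0.34, against 0.08 over all genes. At least 2-fold lower were 11 genes, where 9.08% of all genes were, and the largest rise was 0.55 on the log2 scale. All 4 shEI24 arrays lay below all 4 control arrays for 54 genes (62.1%, against 26.9% of all genes), and above them for 5 (against 23.8% of all genes). Genes with a high signal were called more often, and 74 of the 87 lay above the median level of all genes. Among those 74, 46 fell and 4 rose, where 44.0% of all genes above that level were lower and 29.7% higher. The mean level of the 78 subunit genes was 9.59 to 9.66 in the shEI24 arrays and 10.01 to 10.15 in the control arrays, with no overlap.

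**Figure D1:**
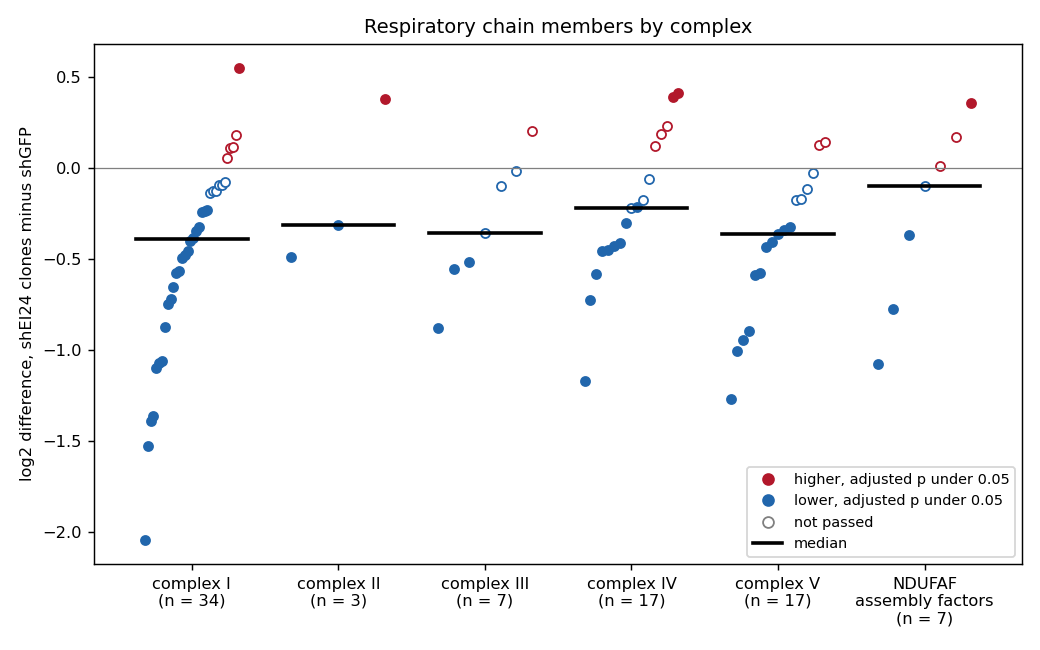
Log2 difference of the shEI24 clones minus shGFP cells (vertical axis) for the genes of each complex and for the NDUFAF assembly factors (horizontal axis). Each point is a gene, filled where limma's adjusted p was under 0.05, and black bars are medians, which run from -0.39 in complex I to -0.10 in the assembly factors.

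The median was below 0 in each complex, and the share of lower genes ran between 42.9% and 67.6%, with no test between complexes. In complex I, 23 of 34 genes fell and 1 rose (67.6% lower, median -0.39). In complex II, which rests on 3 genes, 2 fell and 1 rose (median -0.31). In complex III, 3 of 7 fell (42.9%, median -0.36), a share near the 44.0% of all genes above the median level. Of the complex IV genes, 9 of 17 fell and 2 rose (52.9% lower, median -0.22), and of the complex V genes, 11 of 17 fell (64.7%, median -0.36). The test that treats each line as a single replicate, with both clones against both controls, still called 37 genes lower, where it called 18.6% of all genes lower, but only 1 higher, where it called 14.9% of all genes higher.

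**Figure D2:**
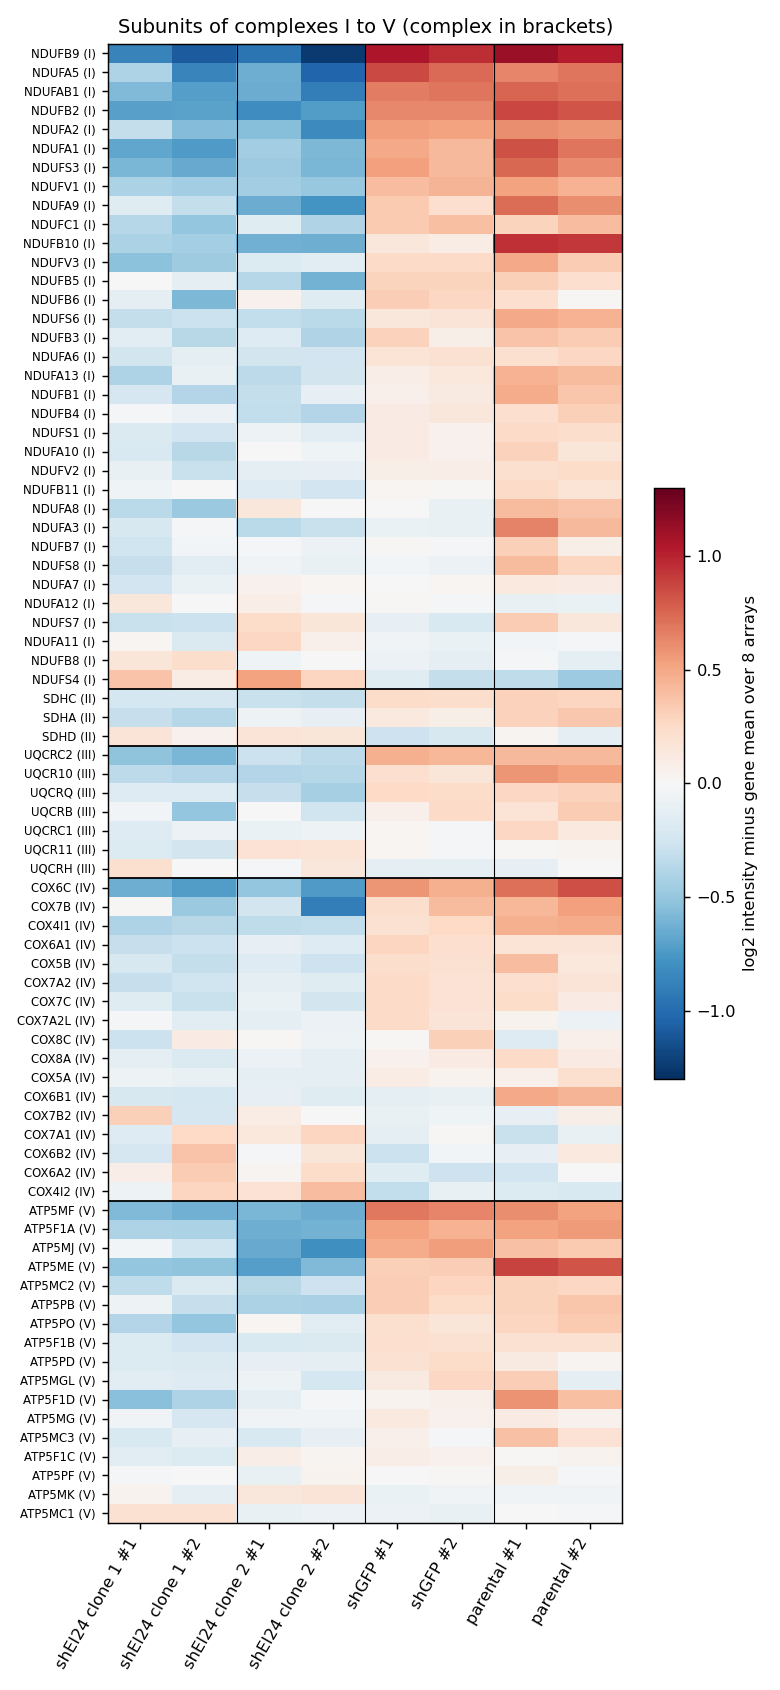
Subunit genes (rows, ordered within each complex by their log2 difference) in the 8 arrays (columns, 2 per line), colored by log2 intensity minus the gene's mean over the arrays. Blue fills most of the 4 shEI24 columns and red the 4 control columns, with 51 of 78 genes lower in every shEI24 array than in every control array.

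Taken clone by clone, 48 genes were lower and 6 higher in clone 1 than in shGFP cells (of all genes, 26.6% were lower and 23.0% higher), and 42 were lower and 5 higher in clone 2 (of all genes, 27.8% and 25.2%). Both clones share the shGFP arrays in these comparisons. Lower in both clones were 39 genes, and lower in a single clone 12. The share of all genes lower in both clones was not counted, but it cannot exceed the 26.6% lower in clone 1. NDUFS4, SDHD and COX6A2 were higher in both clones, where at most 23.0% of all genes can be.

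Complex I, the NADH dehydrogenase, held the deepest falls. NDUFB9, an accessory subunit of its membrane arm, had log2 intensities of 9.86 and 9.65 in clone 1, 9.78 and 9.49 in clone 2, 11.78 and 11.70 in shGFP cells and 11.86 and 11.75 in parental cells. The clones lay far below both controls, and the controls lay together. The log2 difference from shGFP was -2.04 (SE 0.11, limma adjusted p = 3.9e-07), a 4.13-fold fall and the deepest of all 87 genes. NDUFA5, an accessory subunit of the matrix arm, had 8.20 and 7.75 in clone 1, 7.97 and 7.57 in clone 2, 9.47 and 9.34 in shGFP cells and 9.24 and 9.30 in parental cells. No shEI24 array reached a control array, and the fall (log2 difference -1.53, SE 0.15, limma adjusted p = 2.1e-05) came second. At least 2-fold lower were also NDUFAB1, the mitochondrial acyl carrier protein (log2 difference -1.39), NDUFB2 (-1.36), NDUFA2 (-1.10), NDUFA1 (-1.07) and NDUFS3 (-1.06), each with an adjusted p under 0.05.

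The core subunits of complex I that the nucleus encodes lie in its hydrophilic arm, and they carry the flavin and the iron-sulfur clusters or shape the ubiquinone site. The share lower was 29.0% among all genes and 44.0% among those above the median level. Of the 6 core subunits measured, 4 fell (66.7%, median -0.24). They were NDUFS3 of the ubiquinone-binding module, NDUFV1, which binds NADH and the flavin (log2 difference -0.87), and the iron-sulfur proteins NDUFS1 (-0.24) and NDUFV2 (-0.23). NDUFS7 and NDUFS8, iron-sulfur proteins near the ubiquinone site, did not pass (0.11 and -0.09). The 28 accessory subunits had a median of -0.43, with 19 lower (67.9%) and 1 higher, where 26.8% of all genes were higher. The difference between core and accessory subunits was not tested. Besides those named above, lower were NDUFA9 (-0.75), NDUFC1 (-0.72), NDUFB10 (-0.65), NDUFV3 (-0.58), NDUFB5 (-0.57), NDUFB6 (-0.49), NDUFS6 (-0.48), NDUFB3 (-0.46), NDUFA6 (-0.40), NDUFA13 (-0.38), NDUFB1 (-0.35), NDUFB4 (-0.32) and NDUFA10 (-0.23). Not passing were NDUFB11, NDUFA8, NDUFA3, NDUFB7, NDUFA7, NDUFA12, NDUFA11 and NDUFB8, from -0.14 to 0.18.

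NDUFS4 was the single complex I gene that rose. It is an accessory subunit of the NADH-binding module, and its loss causes Leigh syndrome in humans. Its log2 intensity was 10.11 and 9.84 in clone 1, 10.27 and 10.02 in clone 2, 9.59 and 9.43 in shGFP cells and 9.41 and 9.28 in parental cells. Every shEI24 array lay above every control array (log2 difference 0.55, SE 0.11, limma adjusted p = 0.0024). A second, much dimmer cluster of the same gene did not move with it (log2 difference -0.12, limma adjusted p = 0.69), and the mean of both clusters did not pass (log2 difference 0.22, adjusted p = 0.29).

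Complex II, the succinate dehydrogenase, is the only complex here without a subunit from mitochondrial DNA, and it also works in the tricarboxylic acid cycle. Its flavoprotein SDHA had log2 intensities of 10.93 and 10.86 in clone 1, 11.17 and 11.12 in clone 2, 11.36 and 11.31 in shGFP cells and 11.54 and 11.58 in parental cells. All shEI24 arrays were lower (log2 difference -0.31, SE 0.07, limma adjusted p = 0.0053), but without shGFP array 1 the fall did not pass (adjusted p = 0.071). SDHC and SDHD together anchor the enzyme in the membrane and moved in opposite directions. SDHC had 11.74 and 11.75 in clone 1, 11.67 and 11.66 in clone 2, 12.20 and 12.19 in shGFP cells and 12.27 and 12.25 in parental cells, a fall (log2 difference -0.49, SE 0.07, limma adjusted p = 2.5e-04). SDHD had 11.59 and 11.47 in clone 1, 11.59 and 11.57 in clone 2, 11.15 and 11.21 in shGFP cells and 11.46 and 11.30 in parental cells. The lowest shEI24 array of SDHD lay only just above the highest parental array. SDHD was higher than in shGFP cells (log2 difference 0.38, SE 0.08, limma adjusted p = 0.0033), while its difference from parental cells did not pass (0.17, adjusted p = 0.097).

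For SDHC, SDHD, NDUFV2 and ATP5MK the brightest cluster had a number that falls among clusters of another chromosome than the gene's own. Whether it reads a copy of the gene elsewhere was not tested. Each of these genes also had a dimmer cluster among those of its own chromosome, and its log2 difference had the same sign in all 4: -0.29 for SDHC (limma adjusted p = 0.012), 0.33 for SDHD (adjusted p = 0.0051), -0.27 for NDUFV2 (adjusted p = 0.018) and 0.13 for ATP5MK (adjusted p = 0.16). In that dimmer cluster SDHD had 10.17 and 10.04 in clone 1, 10.22 and 10.15 in clone 2, 9.79 and 9.84 in shGFP cells and 10.03 and 10.00 in parental cells. The order of the lines was the same in both clusters. With the dimmer clusters in place of the brighter ones the counts stayed at 51 lower and 5 higher.

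In complex III, the cytochrome bc1 complex, UQCRC2 fell most. This core protein of the matrix side had log2 intensities of 11.39 and 11.32 in clone 1, 11.63 and 11.57 in clone 2, 12.37 and 12.34 in shGFP cells and 12.33 and 12.33 in parental cells. The log2 difference was -0.88 (SE 0.07, limma adjusted p = 7.4e-06). Its partner UQCRC1, the other core protein, did not pass (log2 difference -0.10, limma adjusted p = 0.30). The small subunit UQCR10 had 9.99 and 9.95 in clone 1, 9.95 and 9.96 in clone 2, 10.55 and 10.49 in shGFP cells and 10.90 and 10.85 in parental cells, so the 4 shEI24 arrays were nearly alike and parental cells were highest. Its log2 difference from shGFP was -0.56 (SE 0.07, limma adjusted p = 1.4e-04). UQCRQ also fell (-0.52), whereas UQCRB, UQCR11 and the hinge protein UQCRH did not pass (-0.36, -0.02 and 0.20).

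**Figure D3:**
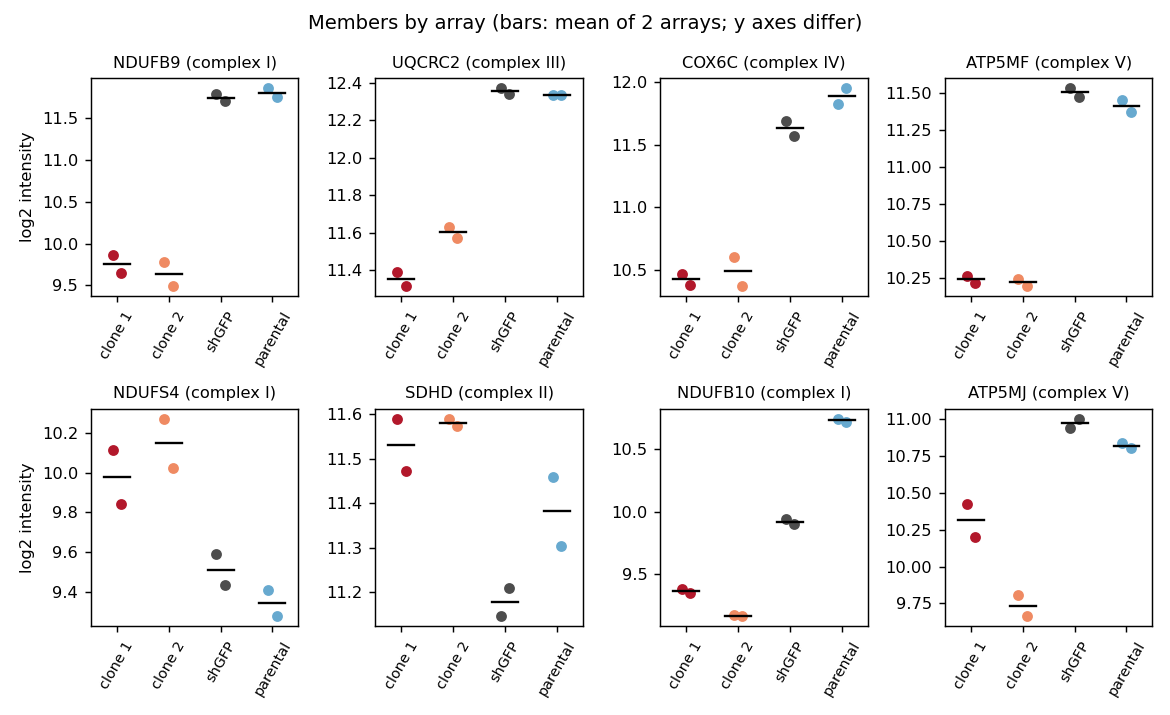
Log2 intensity (vertical axes, each with its own range) of 8 genes in the 4 lines, shEI24 clones left of shGFP and parental cells, with a point per array and a bar at the mean of 2 arrays. NDUFB9, UQCRC2, COX6C and ATP5MF lie lower in both clones, NDUFS4 and SDHD lie higher, NDUFB10 also differs between shGFP and parental cells, and ATP5MJ differs between the clones.

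In complex IV, cytochrome c oxidase, several subunits exist as isoforms, one used in most tissues and the other largely in muscle, lung, testis or other single tissues. The widely used form fell in most of these pairs. COX4I1 had log2 intensities of 9.09 and 9.12 in clone 1, 9.16 and 9.16 in clone 2, 9.69 and 9.75 in shGFP cells and 9.95 and 9.97 in parental cells, a fall (log2 difference -0.59, SE 0.07, limma adjusted p = 9.0e-05). COX4I2, its counterpart of lung and other tissues, had 6.98 and 7.33 in clone 1, 7.24 and 7.44 in clone 2, 6.72 and 6.95 in shGFP cells and 6.87 and 6.85 in parental cells. The shEI24 arrays of COX4I2 lay above the controls, but by as little as the spread between arrays of a line (log2 difference 0.41, SE 0.12, limma adjusted p = 0.016), and without shGFP array 1 the rise did not pass (adjusted p = 0.17).

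The same contrast held for COX6A. COX6A1, the form of most tissues, had 12.63 and 12.65 in clone 1, 12.82 and 12.76 in clone 2, 13.20 and 13.14 in shGFP cells and 13.10 and 13.10 in parental cells (log2 difference -0.46, SE 0.07, limma adjusted p = 4.7e-04). COX6A2, the heart and skeletal muscle form, had 8.39 and 8.63 in clone 1, 8.34 and 8.54 in clone 2, 8.14 and 8.03 in shGFP cells and 8.05 and 8.29 in parental cells. The arrays of COX6A2 did not overlap between the clones and the controls, by a narrow margin (log2 difference 0.39, SE 0.11, limma adjusted p = 0.014). Without shGFP array 2 its rise did not pass (adjusted p = 0.11).

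Neither form of COX6B passed against shGFP cells. COX6B1 had 10.84 and 10.82 in clone 1, 10.95 and 10.90 in clone 2, 10.92 and 10.95 in shGFP cells and 11.54 and 11.49 in parental cells, so the clones and shGFP cells lay together below parental cells. COX6B2, a testis form, had 5.22 and 5.81 in clone 1, 5.41 and 5.60 in clone 2, 5.16 and 5.40 in shGFP cells and 5.32 and 5.56 in parental cells, all overlapping (log2 difference 0.23, limma adjusted p = 0.26). Without clone 1 array 1 it passed (log2 difference 0.38, adjusted p = 0.027).

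In the COX7A set, COX7A2 had 10.12 and 10.16 in clone 1, 10.30 and 10.26 in clone 2, 10.67 and 10.61 in shGFP cells and 10.63 and 10.59 in parental cells, a fall (log2 difference -0.43, SE 0.07, limma adjusted p = 7.7e-04). COX7A2L, which joins complexes III and IV into supercomplexes, had 10.16 and 10.04 in clone 1, 10.06 and 10.11 in clone 2, 10.44 and 10.36 in shGFP cells and 10.23 and 10.11 in parental cells. It was lower than in shGFP cells (log2 difference -0.31, limma adjusted p = 0.010), though not without shGFP array 1 (adjusted p = 0.11), and overlapped with parental cells (-0.08, adjusted p = 0.44). COX7A1, the muscle form, had 6.25 and 6.69 in clone 1, 6.56 and 6.71 in clone 2, 6.29 and 6.44 in shGFP cells and 6.13 and 6.32 in parental cells. Its arrays overlapped and the log2 difference of 0.19 did not pass (limma adjusted p = 0.25). Without clone 1 array 1 it did (0.29, adjusted p = 0.035).

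COX7B, which is needed to assemble the complex, had 8.40 and 7.90 in clone 1, 8.14 and 7.48 in clone 2, 8.62 and 8.80 in shGFP cells and 8.82 and 8.92 in parental cells, so array 2 of each clone lay well below array 1. Its log2 difference was -0.72 (SE 0.19, limma adjusted p = 0.010), and without shGFP array 2 it did not pass (adjusted p = 0.075). COX7B2 had 5.02 and 4.50 in clone 1, 4.81 and 4.71 in clone 2, 4.62 and 4.65 in shGFP cells and 4.60 and 4.79 in parental cells, with full overlap (log2 difference 0.12, limma adjusted p = 0.47). Without clone 1 array 2 its difference passed (0.25, adjusted p = 0.045), and without clone 1 array 1 it was -0.01. COX8A had 11.67 and 11.61 in clone 1, 11.72 and 11.67 in clone 2, 11.85 and 11.91 in shGFP cells and 12.04 and 11.91 in parental cells. Its fall was small (log2 difference -0.21, limma adjusted p = 0.042) and did not pass without clone 1 array 2, without either array of clone 2 or without either shGFP array (adjusted p = 0.058 to 0.22). COX8C, a testis form, had 5.94 and 6.32 in clone 1, 6.23 and 6.15 in clone 2, 6.23 and 6.53 in shGFP cells and 6.06 and 6.29 in parental cells, and did not pass (log2 difference -0.22, limma adjusted p = 0.19).

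**Figure D4:**
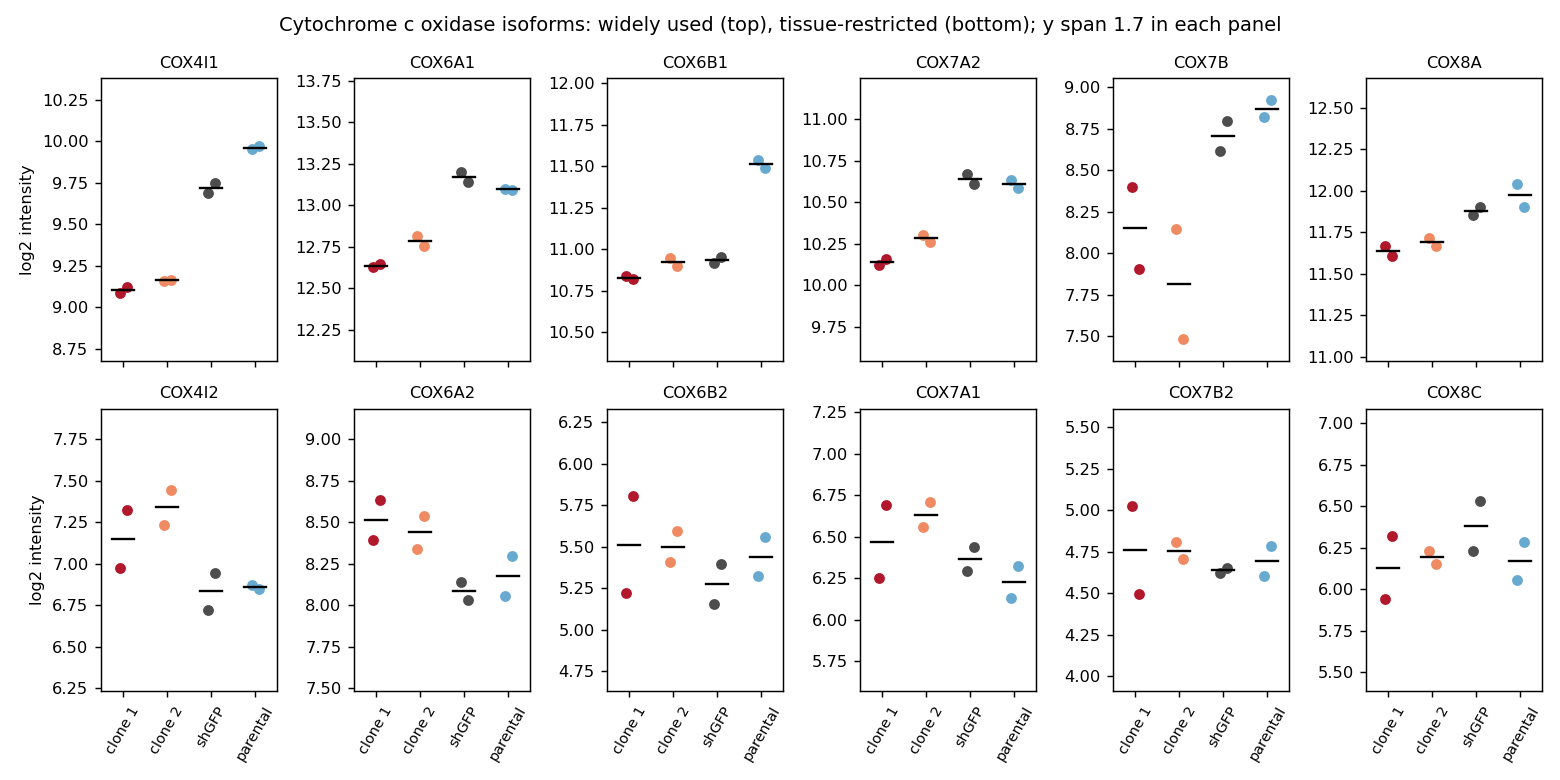
Log2 intensity (vertical axes, all spanning the same number of log2 units) of the isoforms of complex IV subunits in the 4 lines, widely used forms on top and tissue-restricted forms below, with a point per array and a bar at the mean. COX4I1 and COX6A1 lie lower in the clones than in both controls, while COX4I2 and COX6A2 lie slightly higher.

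Counted together, the 6 tissue-restricted genes of complex IV (COX4I2, COX6A2, COX6B2, COX7A1, COX7B2 and COX8C) had 2 that rose and 4 that did not pass, with a median of 0.21, whereas of the 11 others 9 fell and 2 did not pass, with a median of -0.43. These shares were 33.3% higher and 81.8% lower, where 26.8% of all genes were higher and 44.0% of those above the median level lower. Except for COX6A2, the tissue-restricted genes lay below the median level of all genes, while the 11 others lay above it. The sets thus also differ in signal level, and the difference between them was not tested. COX6C had the largest change of the complex, with 10.47 and 10.39 in clone 1, 10.61 and 10.37 in clone 2, 11.69 and 11.57 in shGFP cells and 11.82 and 11.95 in parental cells (log2 difference -1.17, SE 0.09, limma adjusted p = 6.4e-06). COX5B and COX7C also fell (-0.45 and -0.41), and COX5A did not pass (-0.18).

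Complex V, the ATP synthase, has a catalytic F1 head in the matrix and a proton-conducting part in the membrane. Of the F1 genes, the alpha subunit ATP5F1A had log2 intensities of 11.34 and 11.33 in clone 1, 11.11 and 11.13 in clone 2, 12.27 and 12.20 in shGFP cells and 12.27 and 12.30 in parental cells. Its fall (log2 difference -1.01, SE 0.07, limma adjusted p = 2.8e-06) was deeper than that of the catalytic beta subunit ATP5F1B (-0.41, adjusted p = 9.0e-04). The delta subunit ATP5F1D also fell (-0.33), and the gamma subunit ATP5F1C did not pass (-0.12).

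In the membrane part and the stalk, ATP5MF, the f subunit, fell most. It had 10.27 and 10.22 in clone 1, 10.25 and 10.20 in clone 2, 11.53 and 11.48 in shGFP cells and 11.45 and 11.37 in parental cells, with the 4 shEI24 arrays nearly alike (log2 difference -1.27, SE 0.07, limma adjusted p = 7.9e-07). ATP5MJ, a small proteolipid, had 10.43 and 10.20 in clone 1, 9.81 and 9.66 in clone 2, 10.94 and 11.00 in shGFP cells and 10.84 and 10.80 in parental cells (log2 difference -0.95, SE 0.09, limma adjusted p = 2.0e-05). Also lower were ATP5ME, the e subunit (-0.90), ATP5PB, the b subunit (-0.58), ATP5PO, the oligomycin sensitivity-conferring protein (-0.44), ATP5PD, the d subunit (-0.36), and the g-like ATP5MGL (-0.34). ATP5MG, ATP5PF and ATP5MK did not pass (-0.18, -0.03 and 0.13).

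The ring of c subunits is encoded by 3 genes that give the same mature protein, and these did not move together. ATP5MC2 had 9.66 and 9.80 in clone 1, 9.63 and 9.72 in clone 2, 10.31 and 10.27 in shGFP cells and 10.28 and 10.26 in parental cells, a fall (log2 difference -0.59, SE 0.08, limma adjusted p = 1.7e-04). ATP5MC1 had 13.10 and 13.10 in clone 1, 12.81 and 12.83 in clone 2, 12.83 and 12.81 in shGFP cells and 12.90 and 12.88 in parental cells, so clone 1 stood above the other 3 lines (clones minus shGFP 0.14, limma adjusted p = 0.12). ATP5MC3 had 7.03 and 7.12 in clone 1, 7.03 and 7.12 in clone 2, 7.30 and 7.20 in shGFP cells and 7.61 and 7.42 in parental cells. Its difference from shGFP cells did not pass (-0.17, limma adjusted p = 0.12), while that from parental cells did (-0.44, adjusted p = 0.0021).

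The genes that encode no subunit were mixed. Of the NDUFAF factors, which help to build complex I, NDUFAF6, NDUFAF7 and NDUFAF5 fell (log2 differences of -1.08, -0.77 and -0.37). NDUFAF3 had 10.06 and 10.10 in clone 1, 9.77 and 9.83 in clone 2, 9.61 and 9.56 in shGFP cells and 10.08 and 10.06 in parental cells. It was higher than in shGFP cells (log2 difference 0.35, SE 0.07, limma adjusted p = 0.0024) but not than in parental cells (-0.13, adjusted p = 0.15). NDUFAF1, NDUFAF2 and NDUFAF4 did not pass (-0.10, 0.17 and 0.01), nor did ATP5IF1, which inhibits the ATP synthase in reverse (-0.11), and NDUFV1-DT (0.27).

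The next question was whether the clones differed from each other. In clone 1, 5 genes were higher and 6 lower than in clone 2 (limma, adjusted p under 0.05), where 9.29% of all genes were higher and 5.88% lower. The largest difference was that of ATP5MJ, given above (log2 difference 0.58, SE 0.10, limma adjusted p = 0.0069). NDUFS7 had 8.53 and 8.55 in clone 1, 9.06 and 8.97 in clone 2, 8.71 and 8.63 in shGFP cells and 9.16 and 8.97 in parental cells. Clone 2 thus lay with parental cells and was higher than shGFP cells (log2 difference 0.35, limma adjusted p = 0.013). Clone 1 lay slightly below shGFP cells, a difference that did not pass (-0.13, limma adjusted p = 0.29). The clones differed from each other (clone 1 minus clone 2 -0.48, SE 0.10, limma adjusted p = 0.011). NDUFA8, a subunit of the intermembrane space side, had 9.68 and 9.55 in clone 1, 10.17 and 10.02 in clone 2, 10.04 and 9.93 in shGFP cells and 10.44 and 10.40 in parental cells, so it was low only in clone 1 relative to shGFP cells (clone 1 minus clone 2 -0.48, SE 0.10, limma adjusted p = 0.012). NDUFA9, NDUFB5, NDUFB4 and ATP5MC1 were also higher in clone 1 (0.28 to 0.47), and ATP5F1D, ATP5PO, UQCR11 and NDUFV3 lower (-0.40 to -0.33). With the replicate number as a block, 10 genes were lower in clone 1, where 9.71% of all genes were. Leaving out any 1 of the 8 arrays left 1 to 3 genes higher, and without clone 2 array 1 no gene was lower by limma's adjusted p (at an unadjusted p under 0.05, all arrays gave 11 higher and 13 lower, and the methods' t-test 9 and 11).

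The controls were then compared with each other. In shGFP cells, 12 genes of the group were lower than in parental cells, where 7.44% of all genes were, and 0 were higher by limma's adjusted p, where 3.21% of all genes were (at an unadjusted p under 0.05, 1 was higher by limma and 1 by the methods' t-test). Without shGFP array 1, shGFP array 2, parental array 1 or parental array 2 the lower genes numbered 1, 2, 2 and 5. NDUFB10, a complex I subunit with disulfide bonds, showed the largest such difference. It had 9.38 and 9.35 in clone 1, 9.18 and 9.17 in clone 2, 9.94 and 9.90 in shGFP cells and 10.74 and 10.72 in parental cells, 3 separate levels (shGFP minus parental -0.81, SE 0.08, limma adjusted p = 8.9e-04, and clones minus shGFP -0.65, SE 0.07, adjusted p = 4.3e-05). NDUFA3 had 10.39 and 10.57 in clone 1, 10.25 and 10.31 in clone 2, 10.51 and 10.50 in shGFP cells and 11.24 and 11.02 in parental cells, where parental cells alone stood apart (shGFP minus parental -0.63, limma adjusted p = 0.0082). COX6B1 had the same shape (shGFP minus parental -0.58, limma adjusted p = 0.0038). Of the 12 genes, ATP5F1D, ATP5ME, NDUFA9, NDUFB10, NDUFS6 and UQCR10 were lower still in the clones, and NDUFAF3 was higher in the clones. COX6B1, NDUFA3, NDUFA8, NDUFS7 and NDUFS8 did not differ by the test of both clones together against shGFP cells.

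The clones were also set against parental cells, a comparison that shares the clone arrays with the one against shGFP cells. Here 60 genes were lower in the clones and 3 higher, where 30.8% of all genes were lower and 25.1% higher, with a median of -0.45. Lower against both controls were 48 genes, and higher against both were NDUFS4, COX4I2 and COX6A2. The shares of all genes called against both controls were not counted, but cannot exceed 29.0% lower and 25.1% higher. The 12 genes lower only against parental cells were ATP5MC3, COX5A, COX6B1, NDUFA3, NDUFA8, NDUFAF1, NDUFB11, NDUFB7, NDUFS7, NDUFS8, UQCRB and UQCRC1.

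Other genes of the pathway were counted from lists of their functions, against shGFP cells unless stated. There, 29.0% of all genes were lower and 26.8% higher, and of those above the median level 44.0% and 29.7%. Of 35 assembly factors outside the group, 23 fell and 3 rose (median -0.42). Among them NUBPL, which delivers iron-sulfur clusters to complex I, had a log2 difference of -1.58, LRPPRC, which stabilizes mitochondrial mRNA, of -1.49, COX15, a heme A synthase, of -1.38, and COX14 of -1.36. Of 5 electron carriers and cytochromes, 4 fell, led by ETFA and ETFDH, which feed electrons from fatty acid oxidation into ubiquinone (-1.53 and -1.07), and cytochrome c (CYCS) had a log2 difference of 0.36 against shGFP cells, which passed the test, and of 0.15 against parental cells, which did not. In clone 2 alone the difference of CYCS from shGFP cells did not pass either (0.19). Of 12 tricarboxylic acid cycle enzymes, 8 fell, with IDH2 at -2.79, DLD at -1.76 and MDH2 at -0.97, and OGDH alone rose (0.85 against shGFP cells, and 0.16 against parental cells).

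Among 13 regulators of mitochondrial biogenesis, 5 fell and 1 rose against shGFP cells (38.5% lower, median -0.18, where 29.0% of all genes and 44.0% of those above the median level were lower). Against parental cells, 9 fell and 1 rose (median -0.33), where 30.8% of all genes were lower. PPARGC1A, a coactivator of respiratory genes, had 7.78 and 7.60 in clone 1, 8.16 and 7.92 in clone 2, 6.20 and 5.70 in shGFP cells and 6.10 and 6.05 in parental cells (log2 difference 1.92, SE 0.14, limma adjusted p = 3.6e-06). The other regulators on the list fell or did not pass against shGFP cells. GABPB1 fell (-1.48), as did NRF1 (-0.85) and TFAM, which packages mitochondrial DNA and helps to start its transcription (-0.86). ESRRA did not pass (0.02).

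The mitochondrial ribosomal proteins, which translate the subunits that mitochondrial DNA encodes, were counted beside the respiratory chain. Of 73 such genes, 46 fell (63%) and 5 rose (6.85%), where 29.0% of all genes were lower and 26.8% higher. The median was -0.38, and the falls were led by MRPS33 (-1.95), MRPS21 (-1.90), MRPS25 (-1.78) and MRPS23 (-1.34). Of 16 glycolysis genes, 3 fell (18.8%) and 10 rose (62.5%) against shGFP cells (median 0.31). Against parental cells, 6 fell and 7 rose (median 0.12), where 30.8% of all genes were lower and 25.1% higher. In shGFP cells 5 were lower than in parental cells and none higher (median -0.23), where 7.44% and 3.21% of all genes were. LDHB, a lactate dehydrogenase subunit, had 11.90 and 11.84 in clone 1, 11.65 and 11.73 in clone 2, 6.13 and 5.86 in shGFP cells and 6.28 and 6.01 in parental cells (log2 difference 5.78, SE 0.11, limma adjusted p = 1.3e-09). ENO2 and PFKP also rose (2.52 and 1.18), and PFKM fell (-1.14). Differences between these lists were not tested.

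**Figure D5:**
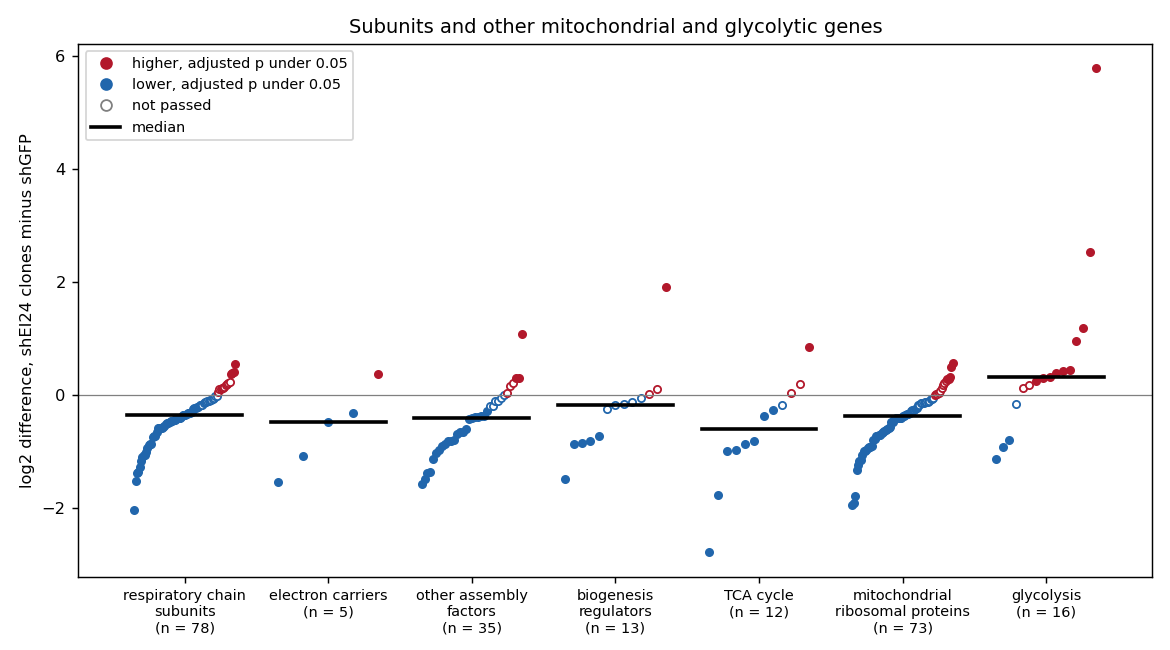
Log2 difference of the shEI24 clones minus shGFP cells (vertical axis) for the subunit genes and 6 other lists (horizontal axis). Each point is a gene, filled where limma's adjusted p was under 0.05, and black bars are medians, from -0.60 for tricarboxylic acid cycle enzymes to 0.31 for glycolysis.

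Many promoters of respiratory genes hold the palindrome of the factor NRF1. Promoters from RefSeq (GRCh38.p14, 250 bases before to 50 after the start) matched 74 of the 87 genes, 66 of them subunit genes. The motif, read as GCGC, then A and any base, then GCGC, on either strand, was found in 16 of the 66 promoters (24.2%) and in 8.91% of all 14237 promoters of measured genes. Stretches of 5 of these promoters show the motif in capitals, in genes that fell in the clones (NDUFA9, NDUFB4, ATP5ME and ATP5MJ) and in a gene that rose (SDHD). They lie at chr12:4649009-4649068 (plus strand), chr3:120596152-120596211 (plus strand), chr4:674461-674520 (minus strand), chr14:103921530-103921571 (minus strand) and chr11:112086738-112086797 (plus strand), in the order shown, upstream of the start.
NDUFA9: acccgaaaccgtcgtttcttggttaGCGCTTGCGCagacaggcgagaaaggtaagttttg
NDUFB4: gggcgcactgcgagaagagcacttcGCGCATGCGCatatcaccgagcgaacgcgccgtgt
ATP5ME: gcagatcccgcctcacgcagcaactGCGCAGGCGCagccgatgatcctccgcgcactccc
ATP5MJ: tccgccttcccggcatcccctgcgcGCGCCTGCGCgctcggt
SDHD: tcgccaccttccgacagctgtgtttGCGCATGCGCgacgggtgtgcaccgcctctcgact

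The subunit genes with the motif had a median log2 difference of -0.17, with 7 of 16 lower, and those without it -0.39, with 33 of 50 lower. Of all genes, 29.0% were lower, and of those above the median level 44.0%, a share near that of the genes with the motif. Similar counts were made for 3 other motifs, each on both strands. CCGGAAGT, a GABPA site of the ETS family, was in 15.2% of the 66 promoters and 6.37% of all, with medians of -0.23 with it and -0.37 without it. AAGATGGC, a YY1 site, was in 15.2% and 4.07%, with medians of -0.11 and -0.36. TCAAGGTCA, a site of the estrogen-related receptor alpha, was in 1.52% and 0.211%, and the single subunit gene that held it was SDHD. These matches describe letters in the window and not binding, and differences between genes with and without a motif were not tested.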

How the data were processed

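The authors deposited log2 intensities for each transcript cluster in each array. GCOS and RMA are named in the submitters' processing notes, and for their versions the sources used here give none. As run by the authors, RMA corrects background, quantile-normalizes the arrays and summarizes probes. The table held 33297 clusters. Those with 1 gene symbol in GEO's platform annotation (19460) were used, with the cluster of the highest mean over the 8 arrays kept for each of 18417 genes. The methods name an exon array, while the cluster numbers matched the annotation of a related gene array. Clusters with several symbols (9 with a matching symbol) and 2 pseudogenes were left out, and the counting of probes shared with pseudogenes or copies is uncertain.

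Differences came from limma 3.58.1 in R 4.3.3 (lmFit, eBayes) with a mean for each of 4 lines and 4 residual degrees of freedom. Benjamini-Hochberg adjustment ran over the 18417 genes, and calls were made at 0.05. The procedure was also run on simulated arrays with 200 changed genes and independent noise. Those arrays held far fewer changed genes than were called here and no shift shared between lines. They therefore do not test the procedure under the conditions of these data. In the shEI24 labels, the number before the hyphen was read as the clone and that after it as the replicate. The replicate numbers were taken to pair the arrays. The differences between arrays 1 and 2 correlated between lines at 0.25 to 0.59 over genes in all 6 pairs of lines, above the limit of 0.1 used for this. The main fit had no term for the replicate number, so its spread within lines includes this shared shift. A fit with the replicate number as a block was run as an alternative. The number of arrays limits the precision.

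Values in every array are given for the 2 largest rises and falls of each complex, the isoform sets, complex II, and the 3 largest differences between clones and between controls. Of other lists up to 4 genes are named. A few further genes were given outside this rule, NDUFAF3 and COX6B1 among them. The genes and lists were chosen with earlier results of these data known. Alternatives were other controls, normalizations, filters, cluster rules, variance models, the methods' t-test and each array left out. The comparison within replicate numbers and the check of cluster position were chosen after seeing the data.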

Additional observations from a re-analysis of the deposited data

Results flagged for a closer look

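In 5 of 87 genes a single shEI24 array lay far from the other 3, by the gap to its nearest neighbour over the range of the 4 shEI24 arrays. This share was 0.978 for ATP5MG, 0.931 for NDUFA6, 0.888 for UQCRC1, 0.873 for NDUFV2 and 0.848 for SDHD, above Dixon's critical value for 4 arrays. Chance gives about 1 such case in 20 groups, so a similar number of flags would be due by chance among 87 genes. The critical value assumes arrays of a single kind, whereas these came from 2 clones.

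In 11 genes the clones differed from each other by limma's test of the difference itself, as log2 clone 1 minus clone 2. Higher in clone 1 were ATP5MJ (0.58), NDUFA9 (0.47), NDUFB5 (0.43), NDUFB4 (0.30) and ATP5MC1 (0.28). Lower in clone 1 were NDUFS7 (-0.48), NDUFA8 (-0.48), ATP5F1D (-0.40), ATP5PO (-0.39), UQCR11 (-0.39) and NDUFV3 (-0.33).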

How the results depend on the processing

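The count of 51 lower genes stayed between 37 and 62 under every alternative run except a 2-fold threshold (11), and without an array it ran from 39 to 52. The count of 5 higher genes was less stable. It was 1 with each line as a replicate, 2 by the methods' t-test, 3 against parental cells, 0 at 2-fold, 8 with an intensity trend, 8 after a second quantile normalization and 4 to 8 without an array, with 8 without clone 1 array 2. The median of -0.34 was -0.39 with each line as a replicate, with both controls pooled or with median centring, -0.45 against parental cells and -0.35 to -0.31 without an array. Between the clones, the 5 higher genes became 8 with an intensity trend, 3 with median centring, 0 by the t-test, 0 at 2-fold and 1 to 3 without an array. The 6 lower genes became 12 with an intensity trend, 13 after a second quantile normalization, 10 with the replicate block, 0 by the t-test, 0 at 2-fold and 0 to 6 without an array, namely 2 without clone 1 array 2, 0 and 3 without arrays 1 and 2 of clone 2, and 3 without either shGFP array. Between shGFP and parental cells, the 12 lower genes became 0 by the t-test, 0 at 2-fold and 1 to 12 without an array, and the 0 higher genes 1 with the replicate block and 1 after a second quantile normalization. The replicate block ended no lower call against shGFP cells and added calls for COX5A, ATP5MG and NDUFB8 there (adjusted p = 0.046, 0.037 and 0.039 from limma). Within arrays of number 1 and of number 2 alone, the medians were -0.31 and -0.37, and all 51 lower and 5 higher genes kept their signs. NDUFS7, not called against shGFP cells, reversed to -0.0883 with each line as a replicate, -0.0883 with pooled controls and -0.29 against parental cells. COX7A1 reversed to -0.0083 after a second quantile normalization, and COX7B2 to -0.0097 without clone 1 array 1 (0.25 without clone 1 array 2). For these changes the cause was not tested. Of 668 values of 32 named genes under alternatives, 603 kept direction and side of the threshold. Dim genes such as COX7B2 lie near the floor of the arrays, where differences are compressed.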

Other observations

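The genes beside the deepest falls on the chromosome varied in their own differences. NDUFB9 fell by 2.04 on the log2 scale, while the 40 measured genes nearest to it in RefSeq order had a median log2 difference of 0.06. NDUFA5 fell by 1.53 beside a median of 0.11, and NDUFB2 fell by 1.36 beside a median of 0.00. Of the neighbours, 32.5% were lower around NDUFB9, 20% around NDUFA5 and 40% around NDUFB2, where 29.0% of all genes were. The genes around NDUFAB1 and ATP5MF had lower medians, of -0.35 and -0.36, though not as low as NDUFAB1 and ATP5MF themselves. Of these neighbours, 56.4% and 55% were lower. By chromosome, the 11 genes on chromosome 19 had a median of -0.06 with 2 lower, whereas the 3 on chromosome 7 had -1.36 with 3 lower. The other genes had a median of 0.12 on chromosome 19, with 21.9% of them lower, and 0.02 on chromosome 7, with 36.1% lower. These are descriptions without a test.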
